A study of Mus musculus with 24 samples.

Results

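The genes described here encode 5 receptor tyrosine kinases and 5 ligands of the FGF, EGF and HGF families. The receptors were *Fgfr1*, *Fgfr2*, *Egfr*, *Erbb2* and *Met*, and the ligands were *Fgf2*, *Fgf7*, *Fgf10*, *Areg* (amphiregulin) and *Hgf* (hepatocyte growth factor). They were taken by symbol from the deposited expression table, where each has 1 row, and make up 10 of its 49452 genes. The receptors of the PDGF and insulin families and their ligands are not among them.

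RNA was sequenced from cultures of primary cells of the stromal-vascular fraction (SVF), the cells left once lipid-filled adipocytes are removed, from interscapular brown (BAT) or epididymal, that is visceral white (vWAT), adipose tissue of C57BL/6 mice. Per the study's methods the mice were male and 6 to 8 weeks old, BAT of several mice was pooled where cells were few, and the labels give no genotype beyond the strain. Cells received by nucleofection either siCtrl, a non-targeting siRNA whose libraries are titled siKO, or siH19, 1 siRNA against the long intergenic non-coding RNA *H19*, and were taken before induction (day 0, d0) or at day 3 of differentiation (d3). The 8 groups of depot, siRNA and day held 3 libraries each, 24 in all, and the labels do not say whether replicates were separate cultures or animals, so that p-values measure the spread between these libraries, which may be technical. At induction the labels list IBMX for both depots, with indomethacin and triiodothyronine as an alternative for BAT, whereas the study's methods name IBMX for white cells alone. The induction mix also held insulin, dexamethasone and rosiglitazone, and thereafter vWAT cells were kept in rosiglitazone and BAT cells in triiodothyronine. The labels also number the libraries of each depot in a separate set. Depot, medium and library set therefore cannot be told apart at d3, nor depot and library set at d0.

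Receptor tyrosine kinases sit in the cell membrane, pair when a secreted ligand binds, and pass the signal through adaptor proteins and Ras to the kinase ERK. Many FGF ligands, though not all, need heparan sulfate chains to bind their receptors, the EGF-like ligand amphiregulin is cut from the cell surface by metalloproteases, and HGF is secreted as an inactive chain that proteases cleave. In fat tissue, precursor cells make several of these ligands, and growth factor signals of this kind are known to keep precursors dividing and to shape their differentiation.

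Levels are in FPKM, sequenced fragments of a gene divided by the length of its transcript and by the size of the library, a unit that corrects for transcript length so that levels of different genes may be set side by side. Differences are on the scale of log2(FPKM + 1), which understates the change of genes with low levels, each tested on the 6 libraries of its comparison with limma. A gene was called where the p-value adjusted over all genes tested was under 0.05 and the change at least 1.3-fold. The table holds no read counts, so that depth is known only relative to other libraries, 0.825 to 0.984 in the 12 BAT and 1.02 to 1.17 in the 12 vWAT libraries. Columns summed to 710794 to 841456, and replicates correlated across genes with Pearson r of 0.981 to 0.985.

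The knockdown was seen in each group. *H19* had a mean of 130 ± 27.1 FPKM (SD, n = 3) in siCtrl and 4.36 ± 1.33 in siH19 BAT cells at d0, and 89.8 ± 8.76 and 13.7 ± 2.79 at d3. In vWAT cells it stood at 11.7 ± 0.528 and 1.21 ± 0.566 at d0, and at 8.59 ± 0.361 and 0.528 ± 0.38 at d3. *H19* was called lower in BAT cells on both days and in vWAT cells at d0. In vWAT cells at d3 all siH19 libraries lay under 1 FPKM, so that the difference there is described without a test.

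The labelled cell types were checked against markers. All 8 precursor markers, among them *Pdgfra*, *Pdgfrb* and *Dlk1*, had mean levels of at least 1 FPKM in every d0 group, and the summed level of the 8 adipocyte markers, among them *Adipoq* and *Fabp4*, rose from 3171 to 3448 FPKM at d0 to 38356 to 40089 at d3 in siCtrl BAT cells and from 4167 to 4169 to 19580 to 20565 in siCtrl vWAT cells. The vWAT cultures also held transcripts of mesothelial cells, the layer that covers visceral fat. The 8 mesothelial markers summed to 205 to 242 FPKM in siCtrl vWAT cells at d0 and to 33.6 to 51.1 at d3, against 4.86 to 5.94 and 1.25 to 3.43 in siCtrl BAT cells, where *Krt8* and *Bnc1* were listed at 0 in all 3 libraries of both days. The 6 markers of macrophages and leukocytes summed to 132 to 164 FPKM in siCtrl BAT and 290 to 324 in siCtrl vWAT cells at d0. The 5 markers of the skeletal muscle lineage summed to 31.6 to 52.2 FPKM in siCtrl BAT and 30.1 to 39 in siCtrl vWAT cells at d0. Of these, *Myog* and *Myod1* had means of 14.3 and 3.47 FPKM in BAT. In vWAT, *Myog* was at 0 and *Myod1* under 1 FPKM in all 3 libraries. The part of muscle-lineage cells in the differences between depots was not tested. Each sum follows its most abundant gene. In siCtrl BAT cells these were *Col3a1* for precursors (9095 FPKM at d0), *Lyz2* for leukocytes (121 at d0) and *Fabp4* for adipocytes (27822 at d3). In such bulk samples, fewer cells of a type and less RNA per cell cannot be told apart.

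Among the ligands, *Fgf2* (basic FGF) and *Fgf7* (keratinocyte growth factor) had the highest levels before induction, and among the receptors *Fgfr1* and *Egfr*. In siCtrl vWAT cells at d0, *Fgf2* stood at 282 ± 21.3 FPKM, *Egfr* at 141 ± 6.13, *Fgfr1* at 127 ± 3.84, *Fgf7* at 78.7 ± 3.27, *Fgf10* at 33.4 ± 0.558, *Hgf* at 21.1 ± 1.72, *Fgfr2* at 13.2 ± 2.24, *Met* at 9.82 ± 0.299, *Erbb2* at 5.4 ± 0.194 and *Areg* at 4.11 ± 0.874. In siCtrl BAT cells at d0 the order began with *Fgf7* at 168 ± 2.93, *Fgfr1* at 144 ± 13.3 and *Fgf2* at 119 ± 12.6, and *Areg* was lowest at 0.205 ± 0.238. The levels of *Fgfr2* do not separate its splice forms, of which one binds *Fgf7* and *Fgf10* and the other binds *Fgf2*. Epithelial cells, which carry the former, were at most weakly represented, since the 5 epithelial markers summed to no more than 0.181 FPKM in any siCtrl BAT library and to 1.09 to 3.86 in siCtrl vWAT libraries.

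**Figure D1:**
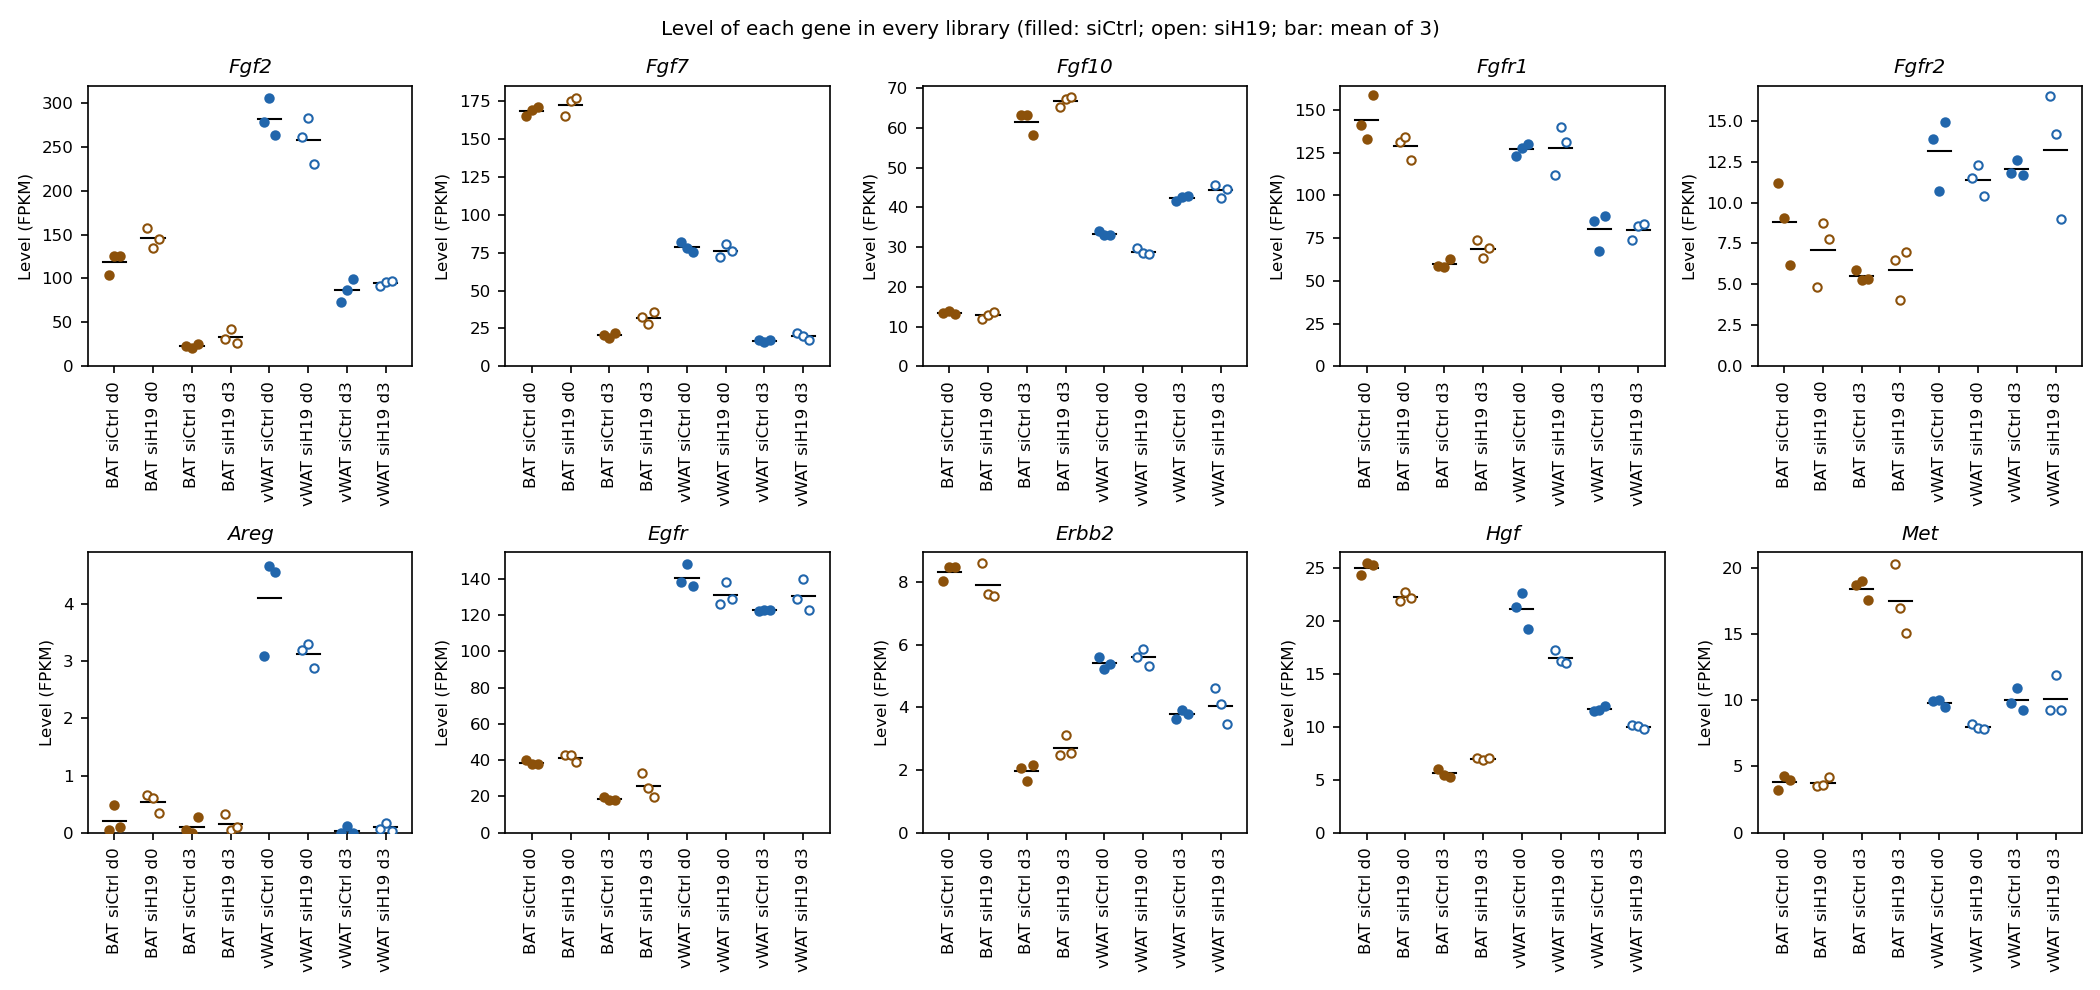
Level (FPKM, linear axis from 0, 1 panel per gene) in every library of the 8 groups, with filled points for siCtrl, open points for siH19, brown for BAT, blue for vWAT and a bar at the mean of 3. *Fgf10* and *Met* were at their highest in BAT cells at d3, with means of 61.6 and 18.4 FPKM in siCtrl, where *Fgf2*, *Egfr*, *Erbb2*, *Fgfr1*, *Fgfr2* and *Hgf* had their lowest means.

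Across the 8 groups each gene had its own order of levels. *Egfr* stood at 122 to 148 FPKM in all 12 vWAT libraries, whose 4 groups overlapped with their neighbours in the order, and the highest BAT library reached 42.8. *Met* and *Fgf10* shared an order that ran from BAT d3 through vWAT d3 and vWAT d0 to BAT d0. Within it, the 2 vWAT d3 groups overlapped for both genes, and so did the 2 BAT d0 groups. For *Met* the 2 BAT d3 groups also overlapped, and so did siCtrl vWAT cells of d3 and d0. *Fgfr2* had no neighbouring groups that were separated, its means running from 13.2 down to 5.5 FPKM. *Fgf7* ran from 172 ± 6.85 FPKM in siH19 BAT cells at d0 down to 16.9 ± 0.781 in siCtrl vWAT cells at d3.

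The genes lie on 8 chromosomes of build GRCm38, by the coordinates of the file, which equal those of GENCODE M21. *Fgf7* is at chr2:126034658-126091185, *Fgf2* at chr3:37348346-37410108 and *Fgf10* at chr13:118669791-118792115, all on the plus strand. *Hgf* (chr5:16553495-16620152) and *Areg* (chr5:91139599-91148432) share a chromosome, as do *Egfr* (chr11:16752203-16918158) and *Erbb2* (chr11:98412470-98437716). *Met* is at chr6:17463800-17573980, *Fgfr1* at chr8:25513654-25575718 and *Fgfr2* on the minus strand at chr7:130162451-133123350. The *Fgfr2* span is 2960900 bases long, and its RefSeq promoter window, chr7:130266809-130267058, lies inside it. All 10 are annotated as protein-coding, and values cover whole genes, that is all annotated exons and UTRs.

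The promoters of 3 ligands are shown because these genes moved furthest or in opposite directions between d0 and d3. Sequences are the 250 bases before the RefSeq start on GRCm38.p6, all on the plus strand and 5′ to 3′, with motif matches in capitals. *Areg* is chr5:91139349-91139598, *Fgf7* is chr2:126034408-126034657 and *Fgf10* is chr13:118714449-118714698, the last inside the longer gene of the file but in no annotated exon.
Areg: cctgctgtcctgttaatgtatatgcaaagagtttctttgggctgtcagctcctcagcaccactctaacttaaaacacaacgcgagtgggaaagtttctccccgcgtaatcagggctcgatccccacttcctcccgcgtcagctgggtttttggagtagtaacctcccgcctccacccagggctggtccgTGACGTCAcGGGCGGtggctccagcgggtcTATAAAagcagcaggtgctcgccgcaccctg
Fgf7: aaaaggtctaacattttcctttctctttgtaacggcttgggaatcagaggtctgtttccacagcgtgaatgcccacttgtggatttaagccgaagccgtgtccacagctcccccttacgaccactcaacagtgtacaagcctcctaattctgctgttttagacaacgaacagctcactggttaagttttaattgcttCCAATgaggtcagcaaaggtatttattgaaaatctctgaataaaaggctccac
Fgf10: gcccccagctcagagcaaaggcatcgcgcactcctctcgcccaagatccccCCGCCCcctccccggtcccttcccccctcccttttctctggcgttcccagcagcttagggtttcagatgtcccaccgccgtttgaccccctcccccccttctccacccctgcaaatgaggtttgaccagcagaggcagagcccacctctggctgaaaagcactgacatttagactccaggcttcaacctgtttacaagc
The *Areg* stretch holds a CRE (TGACGTCA), a GC box (GGGCGG) and a TATA box (TATAAA), none overlapping another. The *Fgf7* stretch holds a CCAAT box (CCAAT), and the *Fgf10* stretch holds a GC box on the opposite strand, read as CCGCCC. Both strands were searched in all 32851 windows of 250 bases, of which 33.8% held CCAAT, 12.4% TATAAA, 32.7% GGGCGG, 6.75% TGANTCA (the AP-1 motif) and 1.55% TGACGTCA. Of the 10 windows of the 9 genes with an entry (*Hgf* has 2, and *Fgfr1* has none), 5 held a GC box, 2 a CCAAT box and 1 each a TATA box, a CRE and an AP-1 motif, the last in the *Met* window. Some of these windows lay in annotated exons, that of *Fgf2* over all 250 bases, that of *Met* over 157 and the second of *Hgf* over 150. The windows of *Fgf2* and *Met* are among those with a GC box. All matches are descriptions of letters and were not tested as binding sites.

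The first question was how these genes changed as precursors became adipocytes. In siCtrl BAT cells, 2 of the 9 genes tested rose from d0 to d3 and 7 fell. *Fgf10* and *Met* rose, by 4.58-fold and 4.83-fold in mean FPKM, whereas *Fgf7*, *Fgf2*, *Hgf*, *Erbb2*, *Fgfr1*, *Egfr* and *Fgfr2* fell. Of all 13001 genes tested, 29.9% were called higher and 35.3% lower at d3. *Areg*, at or below 0.479 FPKM in all 6 libraries, did not reach the filter.

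In siCtrl vWAT cells, 5 of the 9 genes other than *Areg* fell and 0 rose, where 23.9% of all genes were called lower and 26.3% higher. *Fgf7*, *Fgf2*, *Hgf*, *Fgfr1* and *Erbb2* fell. *Areg* passed the filter on low values through its d0 libraries alone and so had to differ, and it is described without a test. *Egfr* and *Fgf10* had adjusted p-values of 0.0057 and 0.00036 but changed by less than 1.3-fold, and *Fgfr2* and *Met* did not pass the test. The median of the log2 differences over these 9 genes was -0.42, beside 0.01 over all genes tested, and in BAT it was -1.25, beside -0.10.

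*Fgf7*, a ligand that fibroblast-like cells send to neighbouring epithelia, fell furthest of the 9 tested in BAT cells. Its 3 siCtrl BAT libraries read 165, 169 and 171 FPKM at d0 and 20.8, 18.4 and 22 at d3, and the siCtrl vWAT libraries 82.2, 78.2 and 75.7 at d0 and 17.5, 16.1 and 17.3 at d3. The groups were far apart in both depots, and the BAT cells began at 2.14-fold the level of the vWAT cells and ended close to them. The log2 difference was -2.98 (SE 0.068, adjusted p = 9.6e-08) in BAT and -2.15 (SE 0.054, adjusted p = 4.6e-07) in vWAT, and the 2 differed by -0.83 (SE 0.088, adjusted p = 1.5e-05 for the interaction of depot and day).

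*Fgf10*, which binds the same form of *Fgfr2* as *Fgf7*, moved the other way. It read 13.3, 13.8 and 13.2 FPKM at d0 and 63.2, 63.2 and 58.3 at d3 in siCtrl BAT cells, a log2 difference of 2.12 (SE 0.052, adjusted p = 1.3e-07). The siCtrl vWAT libraries read 34, 33 and 33.1 at d0 and 41.7, 42.6 and 43 at d3. These groups did not overlap either, but the difference of 0.34 stayed under the 1.3-fold limit, and the rise in BAT exceeded that in vWAT by 1.78 (SE 0.058, adjusted p = 3.8e-09).

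The ratio of *Fgf10* to *Fgf7* within a library combines the changes of both genes. It was 0.0775 to 0.0817 in siCtrl BAT cells at d0 and 2.65 to 3.43 at d3, and 0.414 to 0.437 and 2.39 to 2.65 in siCtrl vWAT cells. At d0 *Fgf7* was thus the more abundant of the pair in all 6 siCtrl libraries, and at d3 *Fgf10* was. In siCtrl vWAT cells the means went from 78.7 to 16.9 FPKM for *Fgf7* and from 33.4 to 42.5 for *Fgf10*, the latter not called.

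**Figure D2:**
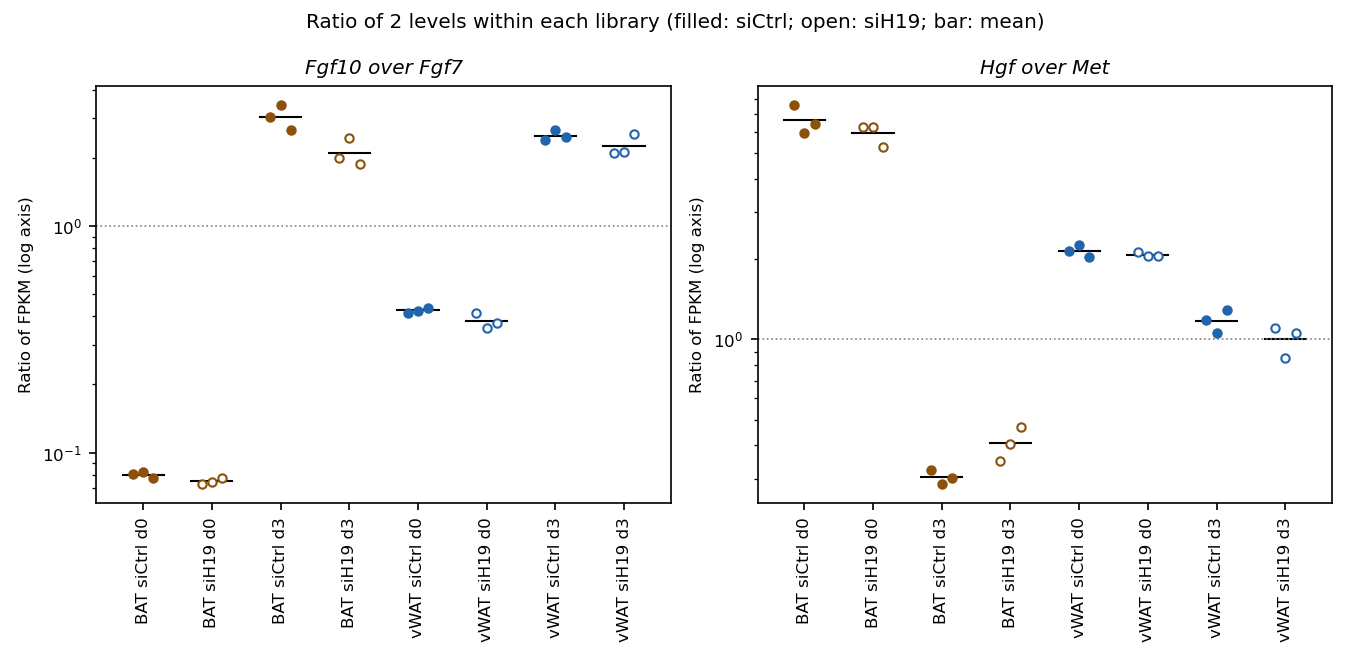
Ratio of FPKM within each library (log axis) for *Fgf10* over *Fgf7* and for *Hgf* over *Met*, in the 8 groups, with filled points for siCtrl, open points for siH19, bars at the mean and a dotted line at 1. The *Fgf10* to *Fgf7* ratio lay below 1 in all 12 libraries at d0 and above 1 in all 12 at d3, and *Hgf* over *Met* fell in siCtrl BAT cells from a mean of 6.65 to 0.304.

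*Fgf2*, a ligand without a classical secretion signal that binds *Fgfr1*, read 104, 126 and 126 FPKM at d0 and 23.5, 21.3 and 25.5 at d3 in siCtrl BAT cells. The siCtrl vWAT libraries read 278, 305 and 263 at d0 and 73.2, 86.9 and 98.8 at d3. All d3 libraries lay below all d0 libraries of their depot. The falls of -2.29 (SE 0.098, adjusted p = 1.4e-06) and -1.70 (SE 0.11, adjusted p = 2.3e-05) differed between depots by -0.58 (SE 0.16, adjusted p = 0.011).

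Among the FGF receptors, *Fgfr1* fell in both depots, and the call of *Fgfr2* depended on the fit. *Fgfr1* went from 133 to 159 FPKM at d0 to 58.2 to 63 at d3 in siCtrl BAT cells (log2 difference -1.25, SE 0.073, adjusted p = 6.3e-06), and from 123 to 130 to 67.4 to 88.2 in siCtrl vWAT cells (-0.67, SE 0.1, adjusted p = 0.0011). *Fgfr2* read 11.2, 9.07 and 6.17 FPKM at d0 and 5.87, 5.27 and 5.36 at d3 in siCtrl BAT cells. Its d0 libraries were spread widely and the lowest of them lay just above d3, so that the call (-0.56, SE 0.19, adjusted p = 0.031) was lost in 5 of the 6 fits that left out 1 library, where adjusted p was 0.056 to 0.08, and kept only without siCtrl d0 replicate 3. It was also lost under median-of-ratios scaling (adjusted p = 0.053) and without the filter on low values (adjusted p = 0.07). In siCtrl vWAT cells, *Fgfr2* had a difference of -0.11 with a 95% interval of -0.40 to 0.18.

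*Areg*, an EGFR ligand, was above 1 FPKM only in vWAT cells at d0. It read 3.1, 4.67 and 4.56 FPKM in siCtrl vWAT cells at d0 and 0, 0.117 and 0 at d3, and 3.2, 3.3 and 2.88 at d0 and 0.0733, 0.166 and 0.0378 at d3 in siH19 vWAT cells. No d3 library came near a d0 library of that depot. The difference of the siCtrl means was -2.29 on the log2(FPKM + 1) scale, where the 1 added to each FPKM makes it smaller than the ratio of the levels. Beside it, all 8 mesothelial markers were called lower at d3 in siCtrl vWAT cells, and their part in the change of *Areg* was not tested.

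The EGF receptors changed more in BAT than in vWAT cells. *Egfr* read 39.9, 37.9 and 37.8 FPKM at d0 and 19.5, 17.9 and 17.8 at d3 in siCtrl BAT cells (-1.03, SE 0.056, adjusted p = 4.7e-06), and 138, 148 and 136 at d0 and 122, 123 and 123 at d3 in siCtrl vWAT cells (-0.19, SE 0.041). *Erbb2*, which has no ligand of its own and pairs with the other receptors of the family, read 8.03, 8.48 and 8.46 at d0 and 2.05, 1.64 and 2.17 at d3 in siCtrl BAT cells (-1.66, SE 0.093, adjusted p = 5.3e-06). In siCtrl vWAT cells it went from 5.22 to 5.61 to 3.63 to 3.93 FPKM (-0.42, SE 0.071, adjusted p = 0.0019). The depots differed in the change of *Egfr* by -0.84 (SE 0.065, adjusted p = 1.4e-06) and in that of *Erbb2* by -1.24 (SE 0.11, adjusted p = 3.2e-06).

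*Hgf* and its receptor *Met* moved apart in BAT cells. *Hgf* read 24.4, 25.5 and 25.3 FPKM at d0 and 6.06, 5.47 and 5.3 at d3 in siCtrl BAT cells (-1.98, SE 0.067, adjusted p = 4.5e-07), and 21.4, 22.7 and 19.3 at d0 and 11.5, 11.6 and 12 at d3 in siCtrl vWAT cells (-0.80, SE 0.071, adjusted p = 9.1e-05). *Met* read 3.22, 4.29 and 3.95 at d0 and 18.7, 19 and 17.6 at d3 in siCtrl BAT cells (2.02, SE 0.099, adjusted p = 2.7e-06). In siCtrl vWAT cells *Met* read 9.98, 10 and 9.48 at d0 and 9.77, 10.9 and 9.29 at d3, groups that overlapped (0.02, 95% interval -0.16 to 0.20). The ligand thus fell in both depots, and the receptor rose in BAT and did so more than in vWAT. The difference between depots was 2.00 (SE 0.12, adjusted p = 2.6e-07) for *Met* and -1.19 (SE 0.092, adjusted p = 1.4e-06) for *Hgf*.

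**Figure D3:**
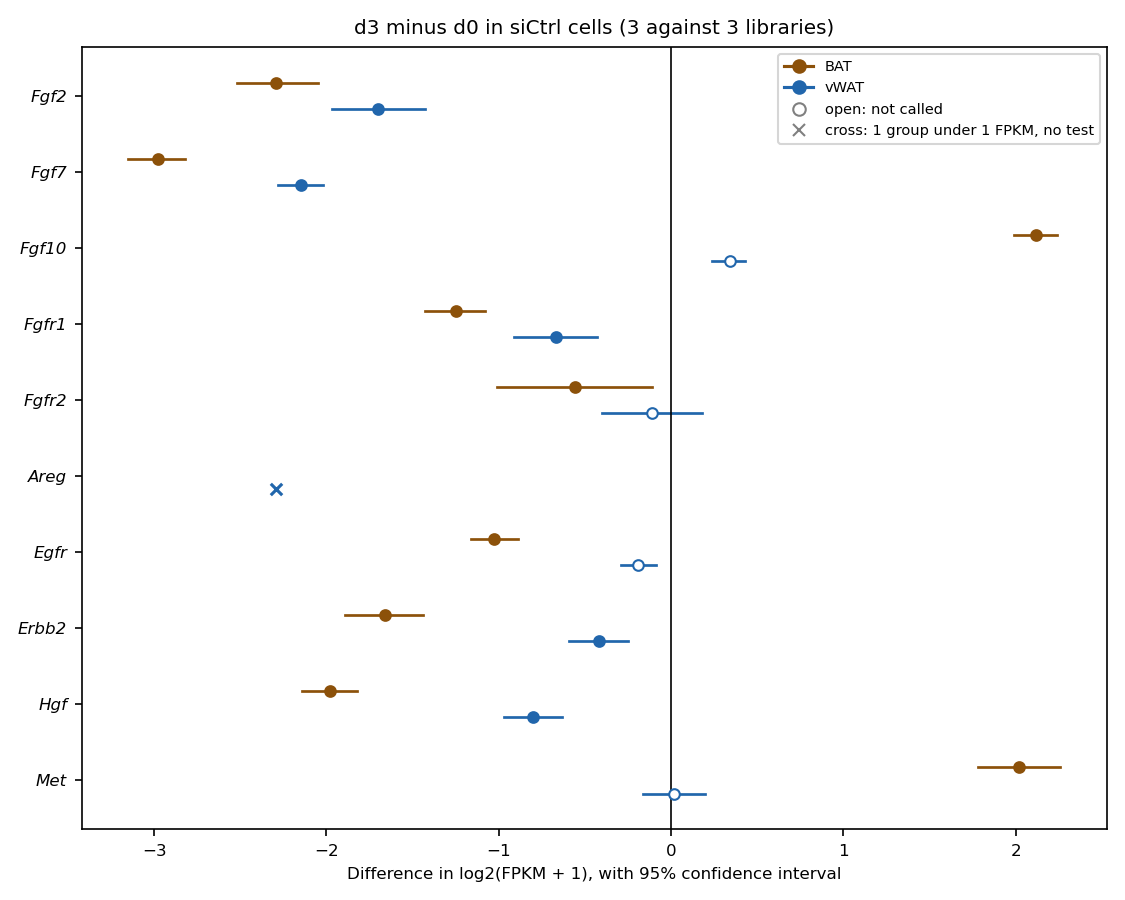
Difference in log2(FPKM + 1) between d3 and d0 in siCtrl cells of BAT (brown) and vWAT (blue), with 95% confidence intervals and filled points for called genes. *Fgf10* and *Met* lie at 2.12 and 2.02 in BAT and at 0.34 and 0.02 in vWAT, and the cross for *Areg* in vWAT marks a value without a test.

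Of the interaction of depot and day, 8 of the 9 genes other than *Areg* were called, where 53% of all genes tested were. *Fgfr2* was the exception (-0.45, SE 0.24, adjusted p = 0.15). *Fgfr1* differed by -0.59 (SE 0.13, adjusted p = 0.0038). *Areg* entered this fit, too, through the vWAT d0 libraries alone, and its value of 2.17 is a description. The d3 BAT and d3 vWAT cells also differed in how far they had differentiated by the summed adipocyte markers given above, whose part in these differences was not tested. Precursor markers were called lower at d3 for 8 of 8 genes in siCtrl BAT cells, their sum falling from 12443 to 13375 FPKM to 2645 to 2950. Among these, *Cd34* had a mean of 2.99 FPKM at d0 and lay under 1 FPKM in all d3 libraries, so that its call is a description. In siCtrl vWAT cells 5 of 8 were called lower, their sum standing at 9762 to 10389 and 9401 to 10438.

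Other genes of the pathway were counted in 8 lists of 115 genes. Where the mean of 1 of the 2 groups lay under 1 FPKM, a gene passed the filter through the other group, so that its call is a description and it is named here with its levels and no p. Of the other FGF ligands, 3 of 19 were tested in siCtrl BAT cells and 5 in vWAT cells. *Fgf21*, a hormone-like FGF, went from 0.603 to 6.07 FPKM in BAT cells, and *Fgf18* fell most (-2.72, SE 0.097, adjusted p = 6.1e-07). In vWAT cells *Fgf11*, which stays inside the cell, went from 0.949 to 4.79 FPKM, and *Fgf1*, acidic FGF, fell most, from 25.9 to 2.77 FPKM (-2.92, SE 0.31).

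The co-receptor *Klb* (beta-Klotho), which *Fgf21* needs, had the largest increase among the 9 other receptors and co-receptors in both depots. It rose from 2.35 to 66.5 FPKM in siCtrl BAT cells (4.35, SE 0.12, adjusted p = 2.1e-07) and stood at 0.654 and 5.29 FPKM in siCtrl vWAT cells. In BAT cells 2 of the 6 tested rose and 2 fell, *Frs2*, a docking protein of the FGF receptors, most (-0.93, SE 0.073). In vWAT cells 2 were called higher, 1 of them *Klb*, and 1, *Fgfr3*, fell (-0.70, SE 0.084).

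Of the other EGF family ligands and receptors, 4 of 12 were tested in BAT, where 1 was called higher and 3 lower, and 5 in vWAT, where 1 was called higher and 4 lower. Of those called lower, 3 in each depot had a d3 mean under 1 FPKM. The gene that rose was *Nrg4* in both depots, a neuregulin secreted by brown fat, from 2.04 to 20.9 FPKM in BAT (2.86, SE 0.1) and from 2.16 to 5.75 in vWAT cells (1.10, SE 0.075). *Ereg* (epiregulin), like *Areg* a ligand of *Egfr*, stood at 24 and 0.73 FPKM in BAT, and fell from 67.5 to 1.21 in vWAT cells (-4.95, SE 0.12). Of the 13 genes of ligand release and HGF activation, *Plau*, the urokinase that can cleave pro-HGF, fell most, from 41.4 to 1.42 FPKM in BAT (-4.13, SE 0.083) and from 85.3 to 23.3 in vWAT cells (-1.83, SE 0.048).

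The heparan sulfate proteoglycans and the enzymes that build or trim their chains fell for the most part. All 19 were tested, 17 being called lower and 1 higher in siCtrl BAT cells, and 13 lower and 1 higher in siCtrl vWAT cells. The median differences were -1.34 and -0.87, beside -0.10 and 0.01 over all genes tested. The sulfatase *Sulf2* rose most in both depots, from 48.5 to 98.8 FPKM in BAT and from 39.4 to 96.6 in vWAT cells, whereas its relative *Sulf1* fell most in BAT (-2.86, SE 0.14) and the syndecan *Sdc3* in vWAT cells (-1.64, SE 0.081).

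The adaptors and kinases of the Ras and ERK chain moved less. Of 18 genes, 3 rose and 4 fell in siCtrl BAT cells and 1 rose and 3 fell in vWAT cells, with medians of -0.05 and -0.07. *Araf* rose most in both (0.82 and 0.50), and *Nras* fell most in BAT (-1.10).

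Of the 13 feedback inhibitors, 2 rose and 8 fell in BAT, and 0 rose and 9 fell in vWAT cells. The ERK phosphatase *Dusp5* fell most in both, from 22.3 to 1.42 FPKM in BAT (-3.28, SE 0.12) and from 53.6 to 3.14 in vWAT cells (-3.72, SE 0.092), and *Spry4* (Sprouty 4) rose most in BAT, from 7.1 to 25.7 FPKM. Of the 12 transcripts known to respond to ERK, 11 were tested, of which 10 were called lower, 1 of them with a d3 mean under 1 FPKM, and 1 higher in BAT, and 10 fell and 0 rose in vWAT cells. *Ier3* fell most in both (-2.85 and -3.48), and *Fos* rose in BAT from 11.3 to 31.9 FPKM (1.42, SE 0.09). Phosphorylated proteins were not measured, so these counts describe transcripts alone.

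The second question was how brown and white precursors differ. BAT and vWAT libraries were compared in siCtrl cells, which also serve as controls of the comparisons of day and of siRNA. At d0, 2 of the 9 genes other than *Areg* were higher in BAT, where 10.2% of all genes were, and 4 were lower, where 21% were. *Fgf7* was 2.14-fold higher in mean FPKM (1.09, SE 0.042, adjusted p = 5.5e-06) and *Erbb2* 1.54-fold higher (0.54, SE 0.065, adjusted p = 0.00076). *Egfr* was lower in BAT, with 37.8 to 39.9 FPKM against 136 to 148, a 3.65-fold difference (-1.84, SE 0.047, adjusted p = 1.1e-06). *Fgf10* (-1.25, SE 0.046), *Fgf2* (-1.24, SE 0.091) and *Met* (-1.17, SE 0.099) were lower too. *Areg*, a ligand of *Egfr*, passed the filter through vWAT alone, at 0.205 FPKM in BAT and 4.11 in vWAT cells. *Fgfr1* and *Fgfr2* did not pass the test (adjusted p = 0.07 and 0.073), and *Hgf* differed by less than 1.3-fold (0.24, adjusted p = 0.026).

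At d3, *Met* (0.82, SE 0.075, adjusted p = 9.9e-05) and *Fgf10* (0.53, SE 0.047, adjusted p = 9.4e-05) were higher in BAT, the opposite of d0, and 16.5% of all genes were. Lower in BAT were 6 of the 9 tested, where 32.1% of all genes were. *Egfr* was now 6.68-fold lower (-2.68, SE 0.049, adjusted p = 2.1e-07), followed by *Fgf2* (-1.83, SE 0.12), *Fgfr2* (95% interval -1.17 to -0.83), *Hgf* (-0.94, SE 0.071), *Erbb2* (-0.70, SE 0.097) and *Fgfr1* (-0.40, SE 0.1, adjusted p = 0.012). *Fgf7* at 20.4 ± 1.85 and 16.9 ± 0.781 FPKM differed by less than 1.3-fold (0.25, adjusted p = 0.027). *Erbb2* thus went from higher to lower in BAT relative to vWAT, as the interaction given above measured.

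**Figure D4:**
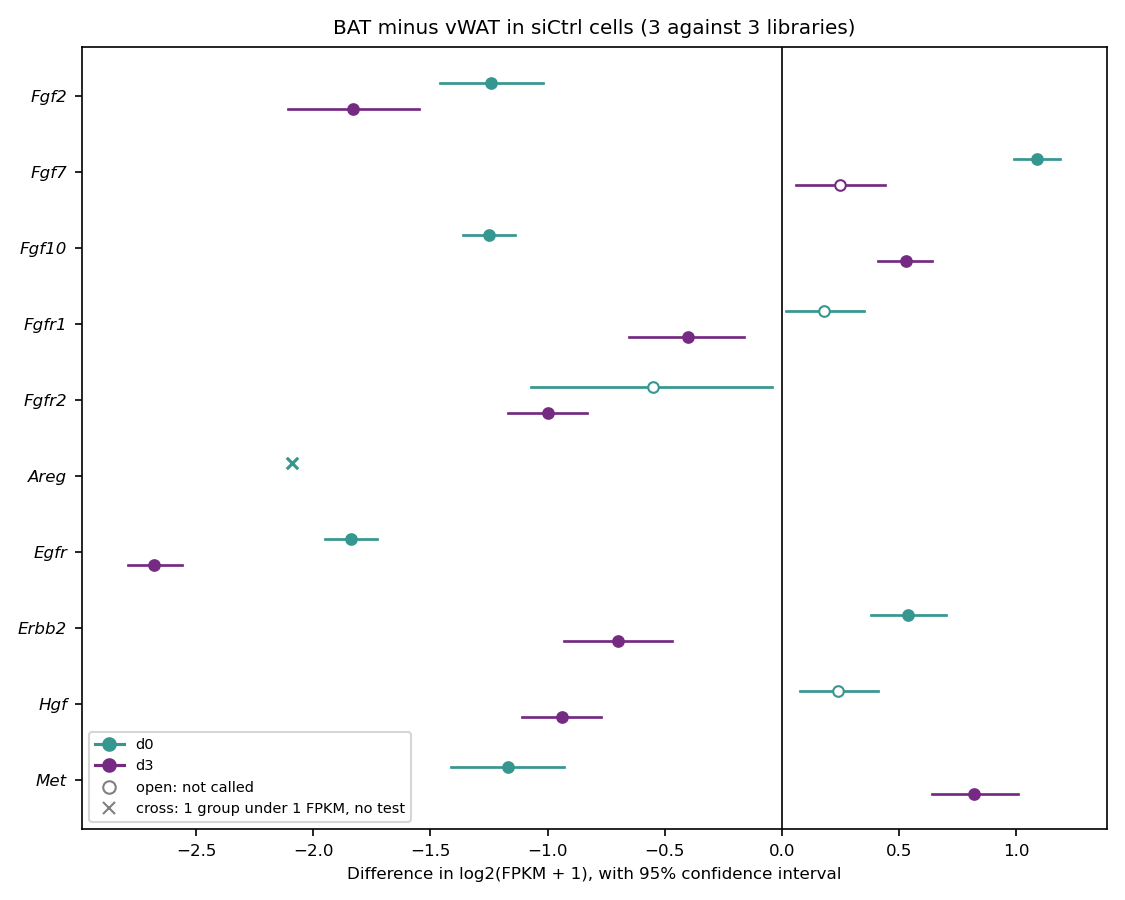
Difference in log2(FPKM + 1) between BAT and vWAT siCtrl cells at d0 (green) and d3 (purple), with 95% confidence intervals and filled points for called genes. *Egfr* lies at -1.84 and -2.68, and *Met* and *Fgf10* change from below 0 at d0 to above 0 at d3. The cross for *Areg* at d0 marks a value without a test.

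The depots were not on one scale throughout. The median difference over all genes tested was -0.13 at d0 and -0.16 at d3, and -0.02 and -0.04 once libraries were rescaled by the median of ratios, which turned the counts of all genes higher and lower in BAT from 1343 and 2753 into 1833 and 1956 at d0 and from 2162 and 4216 into 2801 and 3347 at d3. Under that scaling *Fgfr1* at d3 (-0.27, adjusted p = 0.06) was no longer called and *Fgf7* at d3 was (0.38, adjusted p = 0.0046), and without vWAT siCtrl d3 replicate 1 or 3 *Fgfr1* fell under 1.3-fold (-0.36 and -0.33). All 8 mesothelial markers were called lower in BAT at d0 and 7 of 8 at d3, 7 on each day with a BAT mean under 1 FPKM, and 5 of the 6 leukocyte markers at each day. Their part in the differences of *Egfr*, *Areg*, *Met* and the other genes was not tested.

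Among the pathway lists, feedback inhibitors were lower in BAT at d0 for 9 of 13 genes and higher for 1, *Spry1* (1.24, SE 0.054), with *Dusp4* lowest at 31.4 against 115 FPKM (-1.85, SE 0.052). At d3, 7 were lower and 3 higher, and *Errfi1*, an inhibitor of *Egfr*, stood at 31.6 FPKM in BAT and 169 in vWAT cells (-2.38, SE 0.036, adjusted p = 1.4e-07). ERK-responsive transcripts were lower in BAT for 6 of 11 and higher for 1 at d0, the latter *Ccnd1* (cyclin D1) at 28.7 against 9.05 FPKM, and lower for 2 and higher for 4 at d3. *Ier3* was lowest of them in BAT on both days (-1.25 and -0.62), and *Fos* was highest at d3 (0.98, SE 0.089).

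Other ligands differed in both directions. At d0, 4 of the 5 other FGF ligands tested were called lower in BAT and 1 higher, 3 of the former and the latter with a mean under 1 FPKM in 1 depot. *Fgf1* stood at 0.389 against 25.9 FPKM and *Fgf13*, an intracellular form, at 2.3 against 0.207. At d3, 3 were called lower, 2 of them with a BAT mean under 1 FPKM, *Fgf18* most (-1.80, SE 0.1), and 2 higher, *Fgf13* most (2.38, SE 0.3). *Ereg* was lower in BAT at d0 (-1.44, SE 0.1), as were 3 of the 6 EGF family genes tested, and *Nrg4* was the 1 of 3 higher at d3 (1.70, SE 0.069). *Klb* stood at 2.35 against 0.654 FPKM at d0 and was higher in BAT at d3 (3.42, SE 0.054), and 2 of the 6 FGF receptors and co-receptors were called higher on each day, with 0 lower at d0 and 1 at d3, *Frs2* (-0.77, SE 0.066).

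Ligand release genes were called lower in BAT for 5 of the 9 tested and higher for 1 on each day, 2 of the 5 having a BAT mean under 1 FPKM each time. *Spint2*, an inhibitor of the proteases that activate HGF and a gene of epithelial cells, was lowest at d0 (0.316 against 12.1 FPKM) and *Adam12* highest (0.71, SE 0.1), while at d3 *Plau* was lowest (-3.33, SE 0.082) and *Rhbdf1* highest (0.41, SE 0.087, called in 4 of the 6 fits without 1 library). Heparan sulfate genes were higher in BAT for 8 of 19 and lower for 1 at d0, with the glypicans *Gpc6* (1.62, SE 0.075) and *Gpc2* (-0.75, SE 0.12) at the ends, and higher for 3 and lower for 9 at d3, with *Hs6st1* (1.51, SE 0.067) and *Sulf1* (-2.24, SE 0.16). Of the 18 adaptors and kinases, 1, *Gab2*, was lower in BAT at d0 (-0.59, SE 0.083). At d3, 2 were higher, *Hras* most (0.44, SE 0.057), and 2 lower, *Shc1* most (-0.64, SE 0.053).

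The third question was whether loss of *H19* changed these genes. In BAT cells at d3, 1 of the 9 genes tested was called, *Fgf7*, which was higher with siH19, where 6.39% of all genes were called higher and 2.18% lower. The siH19 libraries read 32.7, 27.7 and 35.8 FPKM and the siCtrl libraries 20.8, 18.4 and 22, without overlap, a 1.57-fold difference in mean (log2 difference 0.62, SE 0.11, adjusted p = 0.013). The call held in each of the 6 fits that left out 1 library, where adjusted p was at most 0.049. *Fgf7* was thus still far below its d0 level in siH19 cells, at 18.6% of it, against 12.2% in siCtrl cells.

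Most of the other genes had values above those of the controls in these cells without passing the test. *Egfr* read 32.8, 24.6 and 19.9 FPKM with siH19 and 19.5, 17.9 and 17.8 with siCtrl (0.44, 95% interval 0.04 to 0.83, adjusted p = 0.13), and *Fgf2* read 30.8, 41.9 and 26.6 against 23.5, 21.3 and 25.5 (0.46, 95% interval 0.07 to 0.85, adjusted p = 0.11). Both sets of libraries were separated, and the siH19 libraries were the more widely spread. Without siH19 d3 replicate 3, *Egfr* was called (0.60, adjusted p = 0.039), and with the spread estimated from all 24 libraries both *Egfr* (adjusted p = 0.0048) and *Fgf2* (adjusted p = 0.016) were. *Hgf* had a difference of 0.28 (95% interval 0.09 to 0.46, adjusted p = 0.055), *Erbb2* of 0.33 (0.05 to 0.61, adjusted p = 0.11) and *Fgfr1* of 0.19 (0.03 to 0.35, adjusted p = 0.1). *Fgf10* (0.12), *Fgfr2* (0.05) and *Met* (-0.08) had adjusted p-values of 0.16 to 0.88. Of the 9, 8 lay above 0, with a median of 0.28 beside 0.05 over all genes tested, and 7 had an unadjusted p under 0.05, where 31.3% of all genes had.

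**Figure D5:**
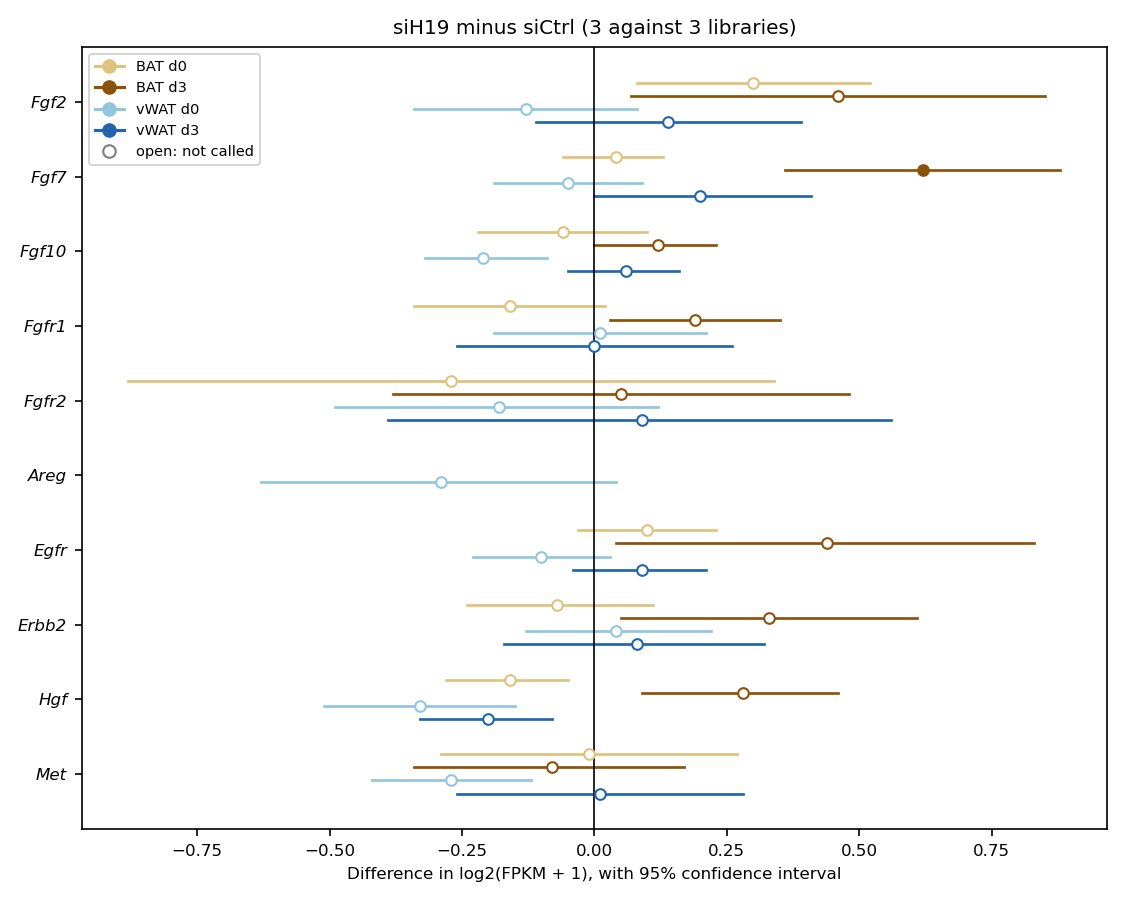
Difference in log2(FPKM + 1) between siH19 and siCtrl in the 4 combinations of depot and day, with 95% confidence intervals and filled points for called genes. *Fgf7* in BAT cells at d3 (0.62) is the only filled point, and *Hgf* lies above 0 in BAT at d3 (0.28) and below 0 in the other 3.

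The siH19 BAT cells at d3 also differed in markers of cell state. Precursor markers were called higher for 4 of the 7 tested and lower for 0, their sum lying at 3276 to 3546 FPKM against 2645 to 2950 in siCtrl cells. Brown adipocyte markers, among them *Ucp1* and *Cidea*, were lower for 4 of 7, with sums of 311 to 365 against 516 to 568. *Elovl3* made up most of these sums, at 292 against 470 FPKM, beside 2.85 against 12.1 for *Ucp1*. Of the 6 macrophage and leukocyte markers, *Ptprc* was not tested and 3 were called lower. Among these, *Adgre1* stood at 0.816 against 1.87 FPKM, so that its call is a description. The 6 markers summed to 82.4 to 94.1 against 134 to 165, mostly *Lyz2* at 77.7 against 128. The adipocyte markers summed to 34870 to 37206 against 38356 to 40089, none of the 8 being called. Among them, *Lipe* (-0.32, adjusted p = 0.0031), *Plin1* (-0.18, adjusted p = 0.023) and *Cidec* (-0.19, adjusted p = 0.024) passed the adjusted threshold but not 1.3-fold. The skeletal muscle markers summed to 36.9 to 45.6 against 26.8 to 33.1, *Des* being called higher (0.44, adjusted p = 0.046). The part of these differences in the changes of *Fgf7*, *Hgf* and the other genes with siH19 was not tested. The counts of all genes called higher and lower, 799 and 272, became 627 and 410 under median-of-ratios scaling.

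In the other 3 combinations 0 of the genes were called by limma. In BAT cells at d0, where 0.617% of all genes were called higher and 1.32% lower, 2 of the 9 tested had an unadjusted p under 0.05, where 19.6% of all genes had, *Fgf2* (0.30, adjusted p = 0.14) and *Hgf* (-0.16, adjusted p = 0.13). In vWAT cells at d0, with 0.329% called higher and 1.2% lower, 3 of 10 had an unadjusted p under 0.05, where 17.6% of all genes had, namely *Hgf* (-0.33, adjusted p = 0.088), *Met* (-0.27, adjusted p = 0.091) and *Fgf10* (-0.21, adjusted p = 0.09). Their siH19 libraries all lay below the siCtrl libraries, at 16.1 to 17.3 against 19.3 to 22.7 FPKM for *Hgf*, 7.82 to 8.18 against 9.48 to 10 for *Met* and 28.2 to 29.7 against 33 to 34 for *Fgf10*. In vWAT cells at d3, with 0.00764% called higher and 0.0229% lower, 1 of 9 had an unadjusted p under 0.05, where 10% of all genes had, again *Hgf* (-0.20, adjusted p = 0.36), at 9.78 to 10.2 against 11.5 to 12 FPKM. Markers of cell state moved in the d0 comparisons. Adipocyte markers were called lower with siH19 for 6 of 8 in each depot, with sums of 1597 to 2135 against 3171 to 3448 FPKM in BAT and 2448 to 2763 against 4167 to 4169 in vWAT cells. Precursor markers summed to 11475 to 12764 against 12443 to 13375 in BAT and to 11499 to 11650 against 9762 to 10389 in vWAT cells, 0 of the 8 being called by limma in either depot, with an unadjusted p under 0.05 for 2 and 5. In BAT cells 2 of the 6 leukocyte markers, of which *Ptprc* was not tested, were lower, with sums of 98.8 to 99.7 against 132 to 164. The mesothelial and epithelial keratin *Krt19* was higher in BAT cells, at 8.86 against 5.15 FPKM. The skeletal muscle markers summed to 43.9 to 65.9 against 31.6 to 52.2 FPKM there. Of these, *Myod1* stood at 6.62 against 3.47 FPKM without being called (0.78, adjusted p = 0.089 by limma). The part of these shifts in the differences above was not tested. Fits with all 24 libraries and the replicate block also called 0 of the 10 genes in these 3 combinations.

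*Hgf* differed in its response to siH19 between depots and days. In BAT cells it read 21.9, 22.8 and 22.2 FPKM with siH19 at d0, below the siCtrl libraries, and 7.11, 6.87 and 7.05 at d3, above them. The difference at d3 exceeded that at d0 by 0.44 (SE 0.076, adjusted p = 0.0058), and that in vWAT at d3 by 0.48 (SE 0.078, adjusted p = 0.0045). *Hgf* was the 1 of 9 genes called in the interaction of depot and siRNA at d3, where 10.5% of all genes were. In the interaction of day and siRNA in BAT cells, where 9.06% of all genes were called, 2 of 9 were, *Hgf* and *Fgf7* (0.59, SE 0.12, adjusted p = 0.016). The siH19 effect on *Fgf7* was not shown to differ between depots (0.42, 95% interval 0.09 to 0.75, adjusted p = 0.11). Under median-of-ratios scaling the counts of all genes called above and below 0 went from 966 and 485 to 635 and 759 for depot and siRNA, and from 1058 and 172 to 524 and 334 for day and siRNA.

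Of pathway genes outside the 10, as of all genes, more were called with siH19 in BAT cells at d3 than in the other combinations. Against 6.39% of all genes called higher there, 6 of the 19 heparan sulfate genes were higher and 0 lower, *Hs6st2* most (17.2 against 9.22 FPKM, 0.83, SE 0.12, adjusted p = 0.0067), with a list median of 0.32 beside 0.05. Of ERK-responsive transcripts 3 of 10 were higher, *Ccnd1* most, at 19.7 against 8.74 FPKM (1.13, SE 0.2, adjusted p = 0.015). Of feedback inhibitors 1 of 13 was, *Errfi1* (0.63, SE 0.075, adjusted p = 0.0043), and of adaptors and kinases 1 of 18, *Nras* (0.40, SE 0.11, adjusted p = 0.048), a call kept in 1 of the 6 fits that left out 1 library and lost under median-of-ratios scaling and without the filter on low values. Of ligand release genes 2 of 7 were, *Mst1r* most (0.71, SE 0.14, called in 3 of those 6 fits), which encodes the receptor of an HGF-like ligand rather than a protease.

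The other ligands moved both ways in those cells. *Ereg* stood at 2.33 FPKM with siH19 and 0.73 in controls, so that it passed the filter through siH19 alone. *Fgf18* was higher at 7.09 against 3.38 (0.89, SE 0.12, adjusted p = 0.0056). *Nrg4* was lower at 12.9 against 20.9 FPKM (-0.67, SE 0.11, adjusted p = 0.0097) and *Fgf21* at 3.37 against 6.07 (-0.70, SE 0.11, adjusted p = 0.01). The siCtrl d3 libraries of these comparisons are also the d3 libraries of the comparison with d0. None of the 6 other FGF receptors and co-receptors tested was called by limma, and 3 had an unadjusted p under 0.05. *Klb* passed the adjusted threshold but not 1.3-fold, at 55 against 66.5 FPKM (-0.27, SE 0.04, adjusted p = 0.0078), and its difference lay below that in vWAT cells (-0.35, adjusted p = 0.019 for the interaction of depot and siRNA).

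At d0 in BAT cells, *Hbegf*, an EGF-like ligand, was the EGF family gene that rose most with siH19, at 35 against 18.1 FPKM (0.91, SE 0.054, adjusted p = 0.0053), 2 of 5 being called higher. *Fgf18* (0.46, SE 0.064), *Sulf1* (0.40, SE 0.045) and *Dusp5* (0.48, SE 0.054) were the single genes called in their lists, all higher. Of the 6 fits that left out 1 library, *Hbegf* was called in 6, *Sulf1* in 1 and *Fgf18* and *Dusp5* in 0, with adjusted p up to 0.04, 0.085, 0.1 and 0.085. In vWAT cells at d0, 2 of the 13 feedback inhibitors were lower, *Spry4* most, at 12.8 against 17.3 FPKM (-0.40, SE 0.063, adjusted p = 0.034), which was called in 0 of the 6 fits without 1 library (adjusted p up to 0.14) nor under median-of-ratios scaling or without the filter on low values, and 0 genes of the other 7 lists were called by limma, with an unadjusted p under 0.05 for 7 heparan sulfate genes, 4 adaptors and kinases, 2 EGF family genes and 2 ERK-responsive transcripts. In vWAT cells at d3, 0 genes of the 8 lists were called by limma, with an unadjusted p under 0.05 for 3 heparan sulfate genes, 1 adaptor or kinase and 1 feedback inhibitor.

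The genes whose levels most resembled each of these across the 24 libraries were ranked by Pearson r of log2(FPKM + 1) among 11491 named genes with at least 1 FPKM in 12 or more libraries. The libraries share depots, days and media, so that these are descriptions. *Fgf7* was nearest to *F2r* (0.995), *Wdr1* (0.994) and *Unc5b* (0.992), *Fgf2* to *Pcdh7* (0.988), *Vezf1* (0.987) and *P4ha1* (0.986), and *Fgf10* to *Vps26a* (0.989), *Gpr146* (0.988) and *Net1* (0.986). *Net1* was also the nearest of *Met* (0.982), before *Ypel2* (0.980) and *Dcakd* (0.979). *Sgpp1* stood first for *Hgf* (0.983), before *Rela* (0.982) and *Sh3bp4* (0.982), and second for *Fgfr1* (0.975), after *Prdm4* (0.975) and before *Atp8b2* (0.974).

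*Egfr* was nearest to *Tgfbr2* (0.993), the type II receptor of TGF-beta, then *Mgp* (0.988) and *Gas7* (0.988), and *Erbb2* to *Fstl1*, *Fbln5* and *P4ha2* (0.985 each). *Areg* was nearest to *Spred2* (0.968), one of the feedback inhibitors counted above, then *Has1* (0.957) and *Akr1c18* (0.954). *Fgfr2* had the weakest neighbours, *Snw1* (0.885), *Apoe* (0.879) and *Wfdc17* (0.879).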

How the data were processed

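RNA from 24 libraries was measured after poly-A enrichment with a directional kit. The sample labels describe paired-end reads, the paper single-end reads. According to the submitters' processing notes and the paper, the authors checked reads with FastQC (0.10.1), aligned them to GRCm38.p5 with TopHat2 (2.0.10; STAR is also named) and computed gene values with Cufflinks (2.2.1). The 1 table that the authors deposited has no counts and names no unit. The values deposited by the authors, computed by Cufflinks, were read as FPKM, the unit of these data in the paper, and the columns sum to different totals. FPKM share out the library, so that a rise of a few abundant genes lowers all others. All 24 columns were matched to samples by description (0 left out), and groups follow the labels.

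Values were transformed to log2(FPKM + 1) and fitted with limma 3.58.1 in R 4.3.3 (moderated statistics with an intensity trend) on the 6 libraries of a comparison, or 12 for an interaction, for genes of at least 1 FPKM in at least 3 of them. The study compared groups with DESeq2, which needs counts that were not used here. Calls required a Benjamini-Hochberg adjusted p under 0.05 and 1.3-fold, interactions the first alone. Summaries used Python 3.11.15, numpy 2.4.6, pandas 2.3.3, scipy 1.17.1 and matplotlib 3.10.9. Genes with a group mean under 1 FPKM are described without a test. The fit was tested on simulated data. Intervals and detection floors from counts cannot be given. Alternatives were a pseudocount of 0.1, no filter, no minimum fold, median-of-ratios scaling, 1 fit of all 24 libraries, a replicate block, and leaving out each library.

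The members and lists were chosen with earlier results of these data known. Named pathway genes are those called that rose and fell most in each list and comparison among genes whose libraries do not overlap, and resembling genes are the 3 with the highest r. Promoters are from RefSeq, with entries for 9 of the 10 genes.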

Additional observations from a re-analysis of the deposited data

Results flagged for a closer look

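Among the 10 genes, 12 values of whether an effect differs between depots, days or siRNAs passed the threshold. They include that of *Areg* for depot and day, which is a description and not a test. Of all genes tested, 53% were called for depot and day in siCtrl cells. The shares were 10.5% for depot and siRNA at d3 and 9.06% for day and siRNA in BAT cells. No group was tested for a library that stands apart, since groups of 3 are too small for that rule.

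Between depots, the change from d0 to d3 in siCtrl cells was larger in BAT than in vWAT on the signed log2 scale for *Areg* (2.17), *Met* (2.00) and *Fgf10* (1.78). For *Erbb2* (-1.24), *Hgf* (-1.19), *Egfr* (-0.84), *Fgf7* (-0.83), *Fgfr1* (-0.59) and *Fgf2* (-0.58) it was more negative in BAT. *Areg* stood at 0.205 ± 0.238 FPKM (SD, n = 3) in siCtrl BAT cells at d0, and entered the fit through the vWAT d0 libraries alone, so that its value is a description of a fall in vWAT cells from 4.11 ± 0.874 and not a rise in BAT cells.

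The response to siH19 at d3 was more positive in BAT than in vWAT cells for *Hgf* (0.48), which was 1.25-fold the control level in BAT and 0.857-fold in vWAT. In BAT cells it was more positive at d3 than at d0 for *Fgf7* (0.59) and *Hgf* (0.44), *Hgf* standing at 0.889-fold the control level at d0.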

How the results depend on the processing

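Of 1339 values of single members recomputed under other settings or without 1 library, 1283 kept their direction and their side of the threshold, 10 lost a call, 15 gained one and 31 changed sign, the last all among values not called. Genes called with siH19 in BAT at d0 numbered 245, and 35 without the filter on low values, 395 without the minimum fold, 518 with all 24 libraries in 1 fit and 4 to 74 without 1 library. In BAT at d3 there were 1071, 2023 without the minimum fold and 631 to 916 without 1 library, and members called went from 1 to 3 with all 24 libraries and to 1 to 2 without 1 library. In vWAT at d0 there were 200, and 65 without the filter, 385 with all 24 libraries and 37 to 122 without 1 library, and in vWAT at d3 4, 20 with all 24 libraries and 1 to 5 without 1 library. Between depots at d0, 4096 genes became 6386 without the minimum fold. The interaction of depot and siRNA had 889 to 1432 genes and 1 to 2 members without 1 library, and that of day and siRNA 801 to 1091 and 2 to 3. Fewer libraries per fit leave fewer degrees of freedom, and the cause of the other moves was not tested.

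Deviations of same-numbered libraries had correlations of -0.14 to 0.09, so that no pairing by number was seen over all genes together. This check cannot show a pairing that touches few genes, and the labels do not say what the numbers mean. With the replicate block, 2 genes were called with siH19 in BAT at d0 and 0 of them higher, so that *Hbegf*, *Fgf18*, *Sulf1* and *Dusp5* were not, 2 in vWAT at d0, without *Spry4*, while *Nras* was not called in BAT at d3, and by limma 0 in vWAT at d3, where 1280 had an unadjusted p under 0.05, and no call of a member changed. In 1 of 8 comparisons, BAT against vWAT at d3, each library resembled most the one of its own number.

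Signs changed for *Met* with siH19 in BAT at d0 (0.01 under median-of-ratios scaling, -0.10 to 0.06 without 1 library) and for *Fgf10* in the interaction of depot and siRNA (-0.01 under that scaling). Without 1 library, ranges that crossed 0 were those with siH19 in BAT at d3 of *Fgfr2* (-0.08 to 0.26) and *Met* (-0.19 to 0.01), in vWAT at d0 of *Fgfr1* (-0.06 to 0.10), and in vWAT at d3 of *Erbb2* (-0.00093 to 0.16), *Fgfr1* (-0.12 to 0.07), *Fgfr2* (-0.08 to 0.32) and *Met* (-0.10 to 0.07). So did *Met* from d0 to d3 in vWAT (-0.04 to 0.07), *Fgfr2* (-0.27 to 0.17) and *Met* (-0.20 to 0.02) for depot and siRNA, and *Fgf2* (-0.02 to 0.30) and *Met* (-0.18 to 0.02) for day and siRNA.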
